A study of Mus musculus with 11 samples.

Results

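Chromatin accessibility was examined at 5 genes that encode factors of T-lineage commitment, *Gata3*, *Bcl11b*, *Satb1*, *Zbtb7b* and *Ets1*. The genes were chosen by name, and each was given a window of its gene body plus 20 kb on both sides, in which every ATAC-seq peak of 9 libraries was collected. They are 5 of 21924 protein-coding genes in the annotation, of which 17721 had at least 1 peak in such a window. Merging the peaks of all libraries wherever they shared at least 1 bp gave 71400 intervals, and 79 of these lay in the 5 windows. In ATAC-seq a transposase cuts DNA that is not packed into closed chromatin, so a peak marks an accessible stretch and does not measure transcription.

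A precursor that enters the thymus becomes a T cell under Notch signals, through factors that open T cell genes and close the genes of other fates. *Gata3* and *Bcl11b* act in this early commitment, *Satb1* organises chromatin in thymocytes, *Zbtb7b* (which encodes ThPOK) directs cells to the CD4 lineage, and *Ets1* encodes an ETS family factor of lymphoid cells. Several of them also serve innate lymphoid cells, which arise in the bone marrow outside the T lineage and depend on *Gata3*.

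The labels give C57BL/6 for all libraries, and the study used mice aged 4 to 8 weeks. Thymus gave CD4SP thymocytes (2 libraries), the CD4 single-positive cells of the late thymic stages, and NKT cells (2 libraries), innate-like T cells isolated with a CD1d tetramer loaded with αGalCer. Bone marrow gave CLP (3 libraries), lineage-negative lymphoid progenitors with IL-7Rα, high Flt3 and intermediate levels of cKit and Sca-1, and ILCP (2 libraries), lineage-negative precursors of innate lymphoid cells with IL-7Rα, the integrin α4β7 and eGFP. The eGFP gate relies on a reporter allele of *Zbtb16*, and the labels do not say whether animals were pooled. CD4SP and NKT are called thymic below, and CLP and ILCP bone marrow, so lineage, tissue and sort cannot be told apart in that comparison.

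The libraries held between 19343 and 41535 peaks, and the read depth of each is not given, so an interval without a peak may only have fallen short of the caller's threshold. CLP replicate 1 stood apart with 19343 peaks against 41535 and 40136 in the other CLP libraries, and CLP means and the main counts that rest on CLP are also given without it. Start sites of the T cell and CLP markers mostly fitted the labels. *Cd3e*, *Cd3d*, *Cd3g* and *Cd4* had a peak at a start site in all 4 thymic libraries and in no bone marrow library, *Rag1* only in the 3 CLP libraries, and *Flt3* in all 5 bone marrow libraries and no thymic one. *Zbtb16* was open in both NKT and both ILCP libraries but also in CLP replicate 2, *Klrb1c* was open in none, and among B cell markers *Ebf1* was open in all 9 while *Pax5* and *Cd79a* were open in none. The 4 NKT markers were open at 2 and 3 in NKT, at 1 and 1 in CD4SP and at 0 to 1 in bone marrow libraries. Of 4 myeloid and 4 erythroid markers, 0 to 1 each were open in a library. The myeloid marker *Itgam* was open in all 4 thymic libraries and no bone marrow library. Over all 8 T cell markers, 7 to 8 were open in the thymic libraries and 2 to 3 in those of bone marrow. The CLP markers were open at 4 to 5 of 5 in CLP, whereas the ILCP markers (3 to 4 of 5 in ILCP, 4 to 5 in the thymus) did not set ILCP apart. In sorted cells, fewer cells with an open site and less opening per cell cannot be told apart.

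*Bcl11b*, *Satb1* and *Zbtb7b* had more peaks in every thymic library than in any bone marrow library, whereas the libraries of both tissues overlapped at *Gata3* and *Ets1*. Within the thymus, *Satb1* and *Ets1* had fewer peaks in both NKT libraries than in either CD4SP library. No gene of the 5 separated ILCP from CLP. A gene called apart is one whose libraries of one group all lie above those of the other. By that rule 3 of the 5 genes had more peaks in thymic libraries, against 12.8% of the 17721 genes, and 0 had fewer, against 3.54%. For NKT, 2 of the 5 had fewer peaks than in CD4SP against 6.16% of all genes, and 0 had more against 8.83%. For ILCP, 0 of the 5 had more peaks than in CLP against 4.53%, and 0 had fewer against 9.69%. Without CLP replicate 1, 4 of the 5 genes, all but *Bcl11b*, had fewer peaks in both ILCP libraries than in the remaining CLP libraries, against 46.3% of all genes. Without ILCP replicate 1 that number was 1, against 14.6%. Without CD4SP replicate 1 the number of genes with fewer peaks in NKT was 4, against 16.4%, and without CD4SP replicate 2 the number with more was 1, against 21.8%.

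**Figure D1:**
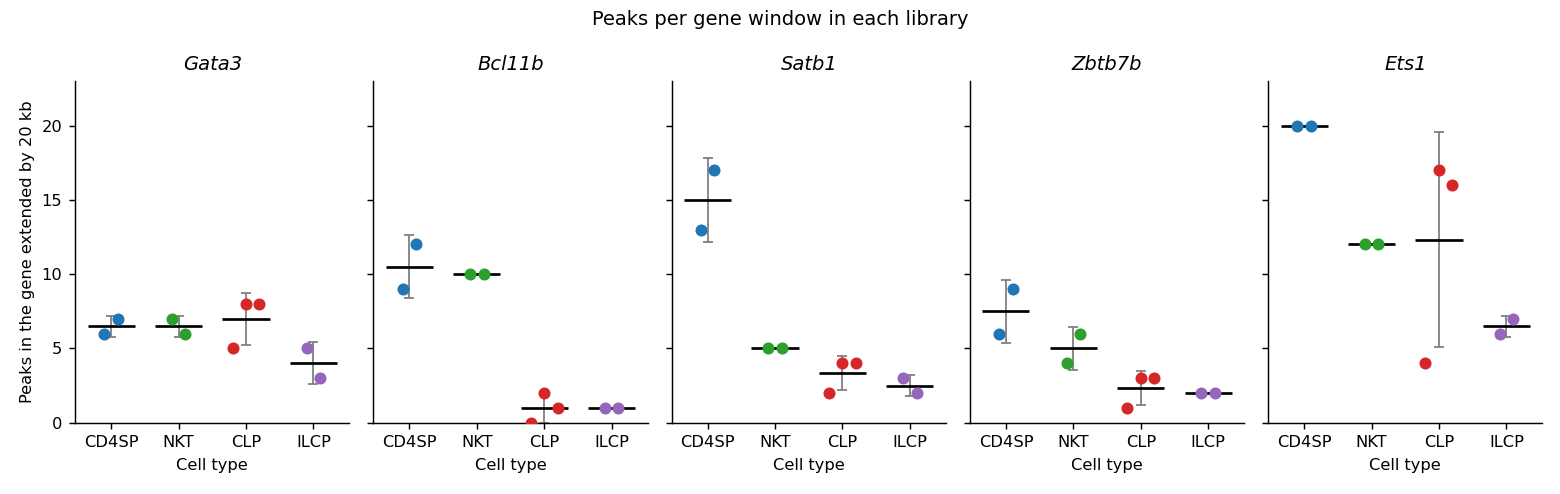
Peaks in each gene extended by 20 kb (vertical axis) in each library (points), by cell type, with the mean as a black line and ±1 SD as a grey bar (n = 2 libraries, or 3 for CLP). *Bcl11b* has 9 to 12 peaks in thymic libraries and 0 to 2 in bone marrow libraries, and *Satb1* has 13 and 17 in CD4SP and 5 and 5 in NKT.

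These differences were tested by exact permutation of the library labels over all 17721 genes, two-sided, with Benjamini-Hochberg adjustment. With 4 thymic and 5 bone marrow libraries the smallest possible p is 0.00794. *Bcl11b*, *Satb1* and *Zbtb7b* reached it, as did 10.8% of all genes in that direction, and their adjusted p in the exact permutation test was 0.0618. No gene of the 17721 passed an adjusted p of 0.05, although 5447 had an unadjusted p under 0.05. Of these, 4190 had more peaks in thymic libraries and 1257 had fewer, which is 23.6% and 7.09% of the 17721 genes, so the direction of the 3 genes is the more common one. When peak numbers were given per 10,000 peaks of the library, all 3 genes passed the adjusted threshold, together with 2838 genes in all. The contrasts within a tissue cannot reach 0.05, since their smallest p is 0.333 for NKT against CD4SP and 0.1 for ILCP against CLP.

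*Gata3*, the zinc finger factor needed from the earliest T cell precursors and by all innate lymphoid cells, lies on the minus strand at chr2:9857078-9890034. Its window held 6 and 7 peaks in CD4SP, 7 and 6 in NKT, 5, 8 and 8 in CLP, and 5 and 3 in ILCP. The order of the means was CLP (7 ± 1.73, SD, n = 3), CD4SP and NKT (6.5 ± 0.707 each, SD, n = 2) and ILCP (4 ± 1.41, SD, n = 2), and only NKT and ILCP, as neighbours in that order, did not overlap. Without CLP replicate 1 the CLP mean was 8, with both libraries above those of CD4SP and NKT. Thymic libraries had a mean of 6.5 peaks and bone marrow libraries 5.8. The difference of 0.7 was within the spread (exact permutation p = 0.595, adjusted p = 0.787) and turned to -0.115 when given per 10,000 peaks of the library and to -0.5 when peaks near the start sites of other genes were left out. It was 0 without ILCP replicate 2 and 1.25 without CLP replicate 2 or 3.

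Of the 8 *Gata3* intervals, 5 were open in both tissues, against 39.4% of all intervals. Open only in bone marrow were 3, all of them in CLP libraries, against 33.6%, and only in the thymus 0, against 27%. Distances here and below run from the start of the principal transcript, positive in the direction of transcription, and ranks give the place of the best peak by score as a percentage of its library's peaks, with 0 the highest score. The interval over the start site, at 0.6 kb and 5050 bp wide, was open in all 9 libraries and ranked between 0.259% and 14.3%. A further interval in intron 3, at 6.6 kb, was also open in all 9, with ranks of 4.81% and 5.46% in CLP replicates 2 and 3 but 73.4% in CLP replicate 1, and 14.3% to 40.9% in the other 6 libraries. It joins separate peaks of some libraries. In ILCP the best ranks, 14.3% and 16.1%, came from a peak nearer the start site. The peak that overlaps those of all libraries ranked at 45% and 33.4% in ILCP. Both sites were therefore accessible in the bone marrow precursors as in the thymus. An interval over 3 upstream start sites, at -10.7 kb, and one in intron 4, at 11 kb, were open in every library except ILCP replicate 2. The start-site interval and those at -4.2 and -10.7 kb also lay within 1 kb of a start site of a neighbouring gene model, so their peaks cannot be given to *Gata3* alone. The central 200 bp of the intron 3 interval are shown because it is the intronic interval of *Gata3* open in all 9 libraries. These 200 bp lie at the edge of the peak or between peaks in several libraries. The peak of CLP replicate 1 does not reach them. The Runx letters also lie outside the peaks of CD4SP replicate 2, NKT replicate 1 and both ILCP libraries. They come from the plus strand of the GRCm38.p6 genome (mm10) at chr2:9871878-9872077, with the letters of a Runx motif and a TCF/LEF motif in capitals.
Gata3 intron 3: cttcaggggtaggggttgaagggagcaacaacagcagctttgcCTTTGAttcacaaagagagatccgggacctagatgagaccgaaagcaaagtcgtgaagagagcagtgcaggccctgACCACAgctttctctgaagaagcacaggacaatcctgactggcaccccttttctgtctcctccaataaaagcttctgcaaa

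Motifs were searched in the central 200 bp of each interval, on both strands, and capitals in the sequences mark them. The Runx motif was read as TGTGGT or as the variant TGCGGT. The motif of GATA factors was read as the word AGATAA, that of TCF/LEF as TCAAAG, that of ETS factors as GGAAGT, and the E-box as CAGCTG or in its other form CAGGTG. Among the 71400 intervals, 28.5% held the Runx letters, 9.75% GATA, 16.5% TCF/LEF, 24.9% ETS and 27.4% E-box. Among the 79 intervals of the 5 genes the shares were 26.6%, 10.1%, 21.5%, 30.4% and 26.6%. A match describes the letters and shows no binding.

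*Bcl11b* encodes the zinc finger factor that marks the passage to the committed T cell stage, and lies on the minus strand at chr12:107910403-108003602. It had 9 and 12 peaks in CD4SP, 10 and 10 in NKT, 0, 2 and 1 in CLP, and 1 and 1 in ILCP. The thymic mean was 10.2 ± 1.26 (SD, n = 4) and the bone marrow mean 1 ± 0.707 (SD, n = 5), a difference of 9.25 peaks that placed *Bcl11b* at rank 44 of 17721 genes from the highest. CD4SP and NKT overlapped, as did CLP and ILCP, and the gap lay between NKT (mean 10) and CLP (mean 1, or 1.5 without CLP replicate 1). Among the 19343 highest-scoring peaks of each library, *Bcl11b* kept 2, 5, 4 and 4 peaks in the thymic libraries and 0, 0, 0, 0 and 1 in the bone marrow libraries.

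Of its 14 intervals, 12 were open only in thymic libraries, against 27% of all intervals, 2 in both tissues, against 39.4%, and 0 only in bone marrow, against 33.6%. Open in all 4 thymic and no bone marrow library were 5 of the 14 (35.7%), against 7.04% of all intervals. The highest-ranked of these lay in intron 3 at 82.6 kb (chr12:107919897-107922134), towards the 3′ end of the gene. Its ranks were 9.85%, 10.5%, 11.7% and 12.3% in the 4 thymic libraries. The other intervals of this class lay at 7.2 kb in intron 1 and at 42.4, 75.4 and 84.6 kb in intron 3. An interval at 10.3 kb in intron 1 was open in the 4 thymic libraries (38.8% to 47.8%) and in CLP replicate 2 (73.7%), and was the only interval besides the start site with a peak in bone marrow. All 7 intervals open in both CD4SP libraries were open in both NKT libraries, against 81.7% of such intervals over the genome, and 7 of the 9 open in both NKT libraries were open in both CD4SP libraries, against 80.7%. The weak interval at 4.7 kb (ranks 94.9% and 98.5%) was specific to NKT.

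The *Bcl11b* start-site interval (-0.5 kb, chr12:108003500-108004727) was open in all libraries except CLP replicate 1. It ranked at 60.7%, 25.6%, 28.1% and 28.7% in the thymus, at 95.8% and 96.3% in CLP replicates 2 and 3, and at 94.4% and 45.2% in ILCP. ILCP replicate 2 thus lay among the thymic ranks, and the other bone marrow libraries lay near the bottom of their lists. With a closed interval set to 100%, the mean rank was 35.8% in thymic and 86.3% in bone marrow libraries (exact permutation p = 0.0238, adjusted p = 0.118). The exact permutation p was 0.0571 without any 1 of CLP replicates 1, 2 and 3 or ILCP replicate 1, and 0.0873 among the 19343 highest-scoring peaks. The adjustment ran over all 71400 intervals. After adjustment the two-sided exact permutation test called 0% of them as higher and 0% as lower in the thymus, and the lowest adjusted p was 0.0564. At an unadjusted p under 0.05, 19 of the 79 intervals of the 5 genes ranked higher in thymic libraries, against 22.4% of all intervals, and 0 ranked lower, against 6.11%. The sequences of the strongest thymic interval and of the intron 1 interval that CLP replicate 2 shared are given from the plus strand of mm10, at chr12:107920915-107921114 and chr12:107993186-107993385. The first carries an E-box and the second a Runx motif.
Bcl11b intron 3, thymic only: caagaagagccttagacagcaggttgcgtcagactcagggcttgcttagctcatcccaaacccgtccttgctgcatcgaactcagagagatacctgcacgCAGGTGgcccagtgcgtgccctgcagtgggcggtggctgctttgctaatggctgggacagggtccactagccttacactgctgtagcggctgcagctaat
Bcl11b intron 1, thymic and CLP replicate 2: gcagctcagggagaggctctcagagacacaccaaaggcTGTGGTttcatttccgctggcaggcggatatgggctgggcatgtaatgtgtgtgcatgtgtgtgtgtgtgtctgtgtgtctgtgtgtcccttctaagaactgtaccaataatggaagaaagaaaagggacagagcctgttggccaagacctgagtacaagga

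**Figure D2:**
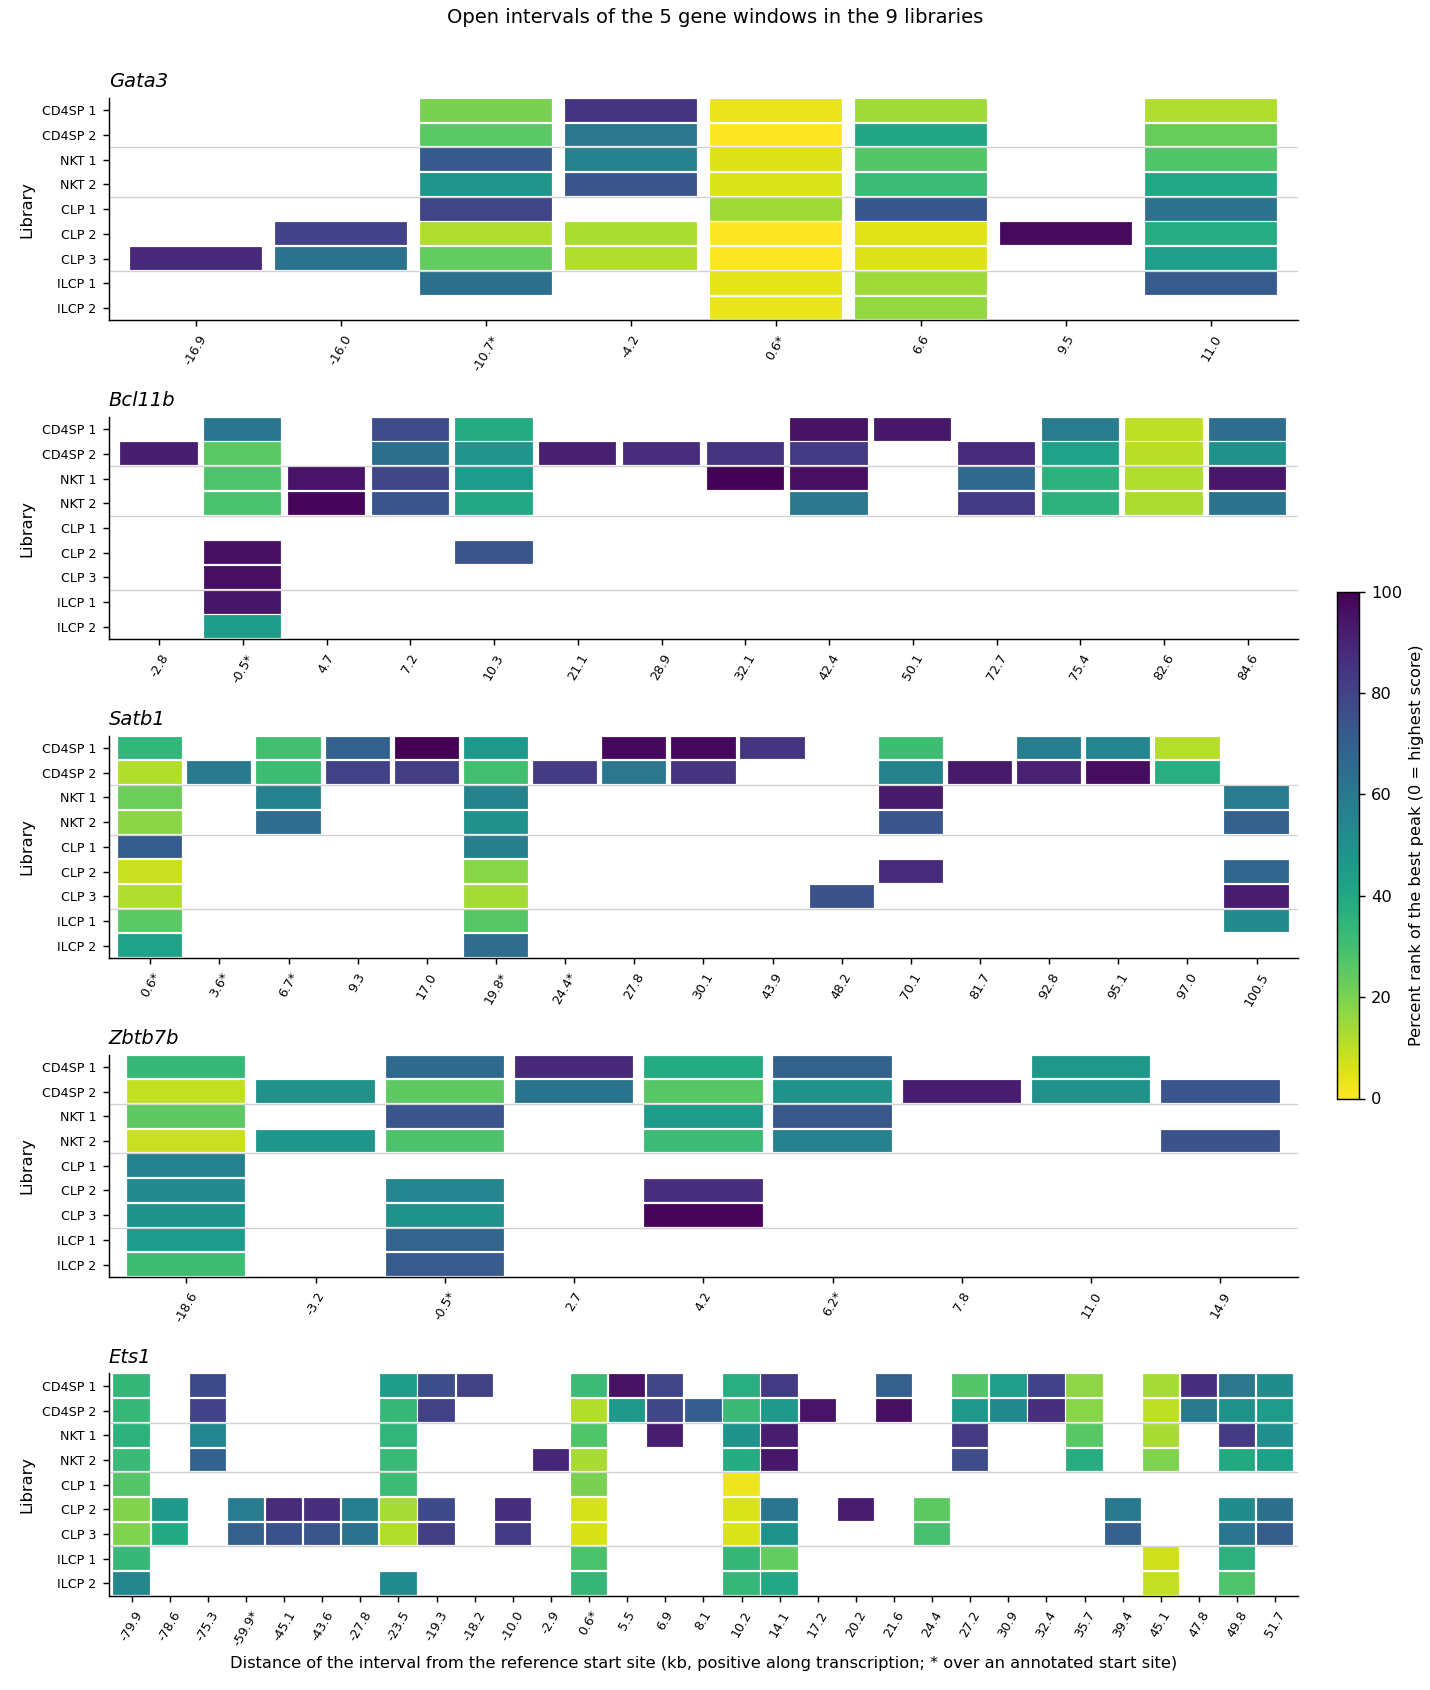
Each of the 79 merged intervals (columns, ordered by distance from the reference start site in kb) in each library (rows), coloured by the percent rank of its best peak where 0 is the highest score, and blank where no peak was called. *Bcl11b* is nearly blank in the 5 bone marrow libraries, *Satb1* has a run of CD4SP intervals that are blank in NKT, and the *Ets1* interval at 45.1 kb is filled in thymic and ILCP libraries and blank in CLP.

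*Satb1*, which encodes a DNA-binding organiser of thymocyte chromatin, lies on the minus strand at chr17:51736187-51833290. Its window held 13 and 17 peaks in CD4SP, 5 and 5 in NKT, 2, 4 and 4 in CLP, and 3 and 2 in ILCP. CD4SP (mean 15 ± 2.83, SD, n = 2) stood apart from NKT (mean 5), NKT from CLP (3.33 ± 1.15, SD, n = 3), and CLP overlapped ILCP (2.5 ± 0.707, SD, n = 2). Without CLP replicate 1 the CLP mean was 4, with both libraries above those of ILCP. The difference of -10 peaks between NKT and CD4SP was at rank 2 from the lowest of 17721 genes, with only *Trio* (-11.5) below it. Much of it lay in low-ranked peaks, since among the 19343 highest-scoring peaks of each library *Satb1* had 6 and 4 peaks in CD4SP, 2 and 1 in NKT, 2, 2 and 2 in CLP, and 3 and 2 in ILCP. On that set the NKT difference was -3.5, and the thymic libraries no longer lay above those of bone marrow (difference 1.05, exact permutation p = 0.444). In base pairs covered, too, the thymic difference of *Satb1* missed the threshold (exact permutation p = 0.0873).

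Among the 17 *Satb1* intervals, 7 were open in both CD4SP libraries and in no other library, a share of 41.2% against 2.65% of all intervals. The same 7 made up the intervals specific to CD4SP against NKT, a class that holds 3.46% of all intervals. Of the 11 intervals open in both CD4SP libraries, 4 were open in both NKT libraries, against 81.7% of such intervals over the genome. The highest-ranked of the 7 lay at the 3′ end of the gene, at 97 kb (chr17:51735036-51737537), with ranks of 11.2% and 37.2%. The others lay at 9.3, 17, 27.8, 30.1, 92.8 and 95.1 kb, with ranks from 54.5% to 99.8%, so most of these peaks were low in their lists.

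Start sites of *Satb1* lay in 5 of the 17 intervals. The interval over the principal start (0.6 kb, over 3 start sites) and the one at 19.8 kb in intron 1 (2 start sites) were open in all 9 libraries. At 0.6 kb the ranks were 34.3% and 11.6% in CD4SP, 22.5% and 17.3% in NKT, 71.3%, 8.22% and 11.8% in CLP, and 25.5% and 42.2% in ILCP, so the thymic and bone marrow libraries overlapped. Another, at 6.7 kb over 2 alternative start sites (chr17:51826009-51827224), was open in all 4 thymic and no bone marrow library, with ranks of 30.4% and 31.6% in CD4SP and 56.3% and 65.1% in NKT. Among the 19343 highest-scoring peaks only the CD4SP libraries kept a peak there. With ranks as a percentage of those 19343 peaks, the mean difference between the tissues was -21.3 percentage points. It was -54.2 with ranks as a percentage of all peaks of each library, so the 2 values are on different scales. Start sites at 3.6 and 24.4 kb were open only in CD4SP replicate 2. Downstream of the gene, at 100.5 kb, 1 interval ran the other way. It was open in both NKT libraries (58.2% and 69.2%), CLP replicates 2 and 3 (67.1% and 92.1%) and ILCP replicate 1 (52.4%), and in neither CD4SP library. NKT-specific intervals made up 2 of the 79, against 4.3% of all intervals. Its central 200 bp (chr17:51732688-51732887, plus strand, mm10) are shown as a *Satb1* interval open in NKT and in no CD4SP library, and hold the Runx letters at 2 places and the TCF/LEF letters between them.
Satb1 downstream, not in CD4SP: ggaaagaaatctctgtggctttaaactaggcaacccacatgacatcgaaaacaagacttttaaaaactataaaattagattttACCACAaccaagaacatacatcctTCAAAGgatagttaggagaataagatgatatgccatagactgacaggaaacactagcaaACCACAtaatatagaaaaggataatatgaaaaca

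*Zbtb7b*, whose product ThPOK holds cells in the CD4 helper lineage and is also used by NKT cells, lies on the minus strand at chr3:89377644-89394776. It had 6 and 9 peaks in CD4SP, 4 and 6 in NKT, 1, 3 and 3 in CLP, and 2 and 2 in ILCP. CD4SP (mean 7.5 ± 2.12, SD, n = 2) and NKT (5 ± 1.41, SD, n = 2) overlapped at 6 peaks, and both lay above CLP (2.33 ± 1.15, SD, n = 3) and ILCP (2). The CLP mean was 3 when replicate 1 was left out, with both libraries above those of ILCP. The thymic mean was 6.25 ± 2.06 (SD, n = 4) and that of bone marrow 2.2 ± 0.837 (SD, n = 5), which placed the gene at rank 643 of 17721. Among the 19343 highest-scoring peaks the thymic libraries held 3, 6, 2 and 4 peaks and the bone marrow libraries 1, 0, 1, 2 and 2, so the tissues overlapped at 2 peaks.

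Of its 9 intervals, 6 were open only in thymic libraries, against 27% of all intervals, and 3 in both tissues, against 39.4%. The interval over 5 start sites (-0.5 kb) was open in all libraries except CLP replicate 1, with ranks of 24.8% to 73.7% in the thymus and 49.5% to 71.5% in bone marrow. An alternative start in intron 1, at 6.2 kb over 2 start sites (chr3:89386615-89387717), was open in the 4 thymic libraries (69%, 49.1%, 72.8% and 56.1%) and in no bone marrow library. Among the 19343 highest-scoring peaks only CD4SP replicate 2 kept a peak there. With ranks as a percentage of those 19343 peaks, the mean difference between the tissues was -0.941 percentage points. On the other scale, a percentage of all peaks of each library, it was -38.3. Near it in the same intron, the interval at 4.2 kb was open in the thymus at 26.2% to 45% and in CLP replicates 2 and 3 only at 86.1% and 98.6%. The interval at -18.6 kb, open in all 9 libraries, overlaps the start region of *Flad1*. Within the thymus, the intervals at 2.7 and 11 kb were open in both CD4SP libraries and no other. The latter ranked at 46.7% and 49.8%, below the CD4SP ranks at 4.2 and -18.6 kb. Its central 200 bp (chr3:89382216-89382415, plus strand, mm10) are shown as the higher-ranked of these CD4SP-only intervals of *Zbtb7b*. The letters of an ETS and a GATA motif are in capitals.
Zbtb7b intron 1, CD4SP only: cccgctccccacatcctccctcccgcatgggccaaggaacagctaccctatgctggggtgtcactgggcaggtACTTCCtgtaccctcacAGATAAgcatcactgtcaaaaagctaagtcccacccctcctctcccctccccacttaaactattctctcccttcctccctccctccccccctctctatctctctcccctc

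*Ets1*, the ETS family factor of T, B and innate lymphoid cells, lies on the plus strand at chr9:32636221-32757820 and had the largest set of intervals, 31. Its window held 20 and 20 peaks in CD4SP, 12 and 12 in NKT, 4, 17 and 16 in CLP, and 6 and 7 in ILCP. CD4SP stood apart from all other cell types, CLP (12.3 ± 7.23, SD, n = 3) overlapped NKT, and NKT stood apart from ILCP (6.5 ± 0.707, SD, n = 2). Without CLP replicate 1 the CLP mean was 16.5, with both libraries above those of NKT. The NKT difference from CD4SP, -8 peaks, was at rank 7 from the lowest of 17721 genes. It was -2 among the 19343 highest-scoring peaks of each library, where CD4SP had 9 and 11 and NKT 8 and 8. The ILCP mean differed from the CLP mean by -5.83 peaks, and by -10 peaks without CLP replicate 1, -3.5 without replicate 2 and -4 without replicate 3. Among the 19343 highest-scoring peaks this difference turned to 1.17, with 4, 6 and 6 peaks in CLP and 6 and 7 in ILCP. The thymic and bone marrow libraries overlapped (16 ± 4.62, SD, n = 4, against 10 ± 6.04, SD, n = 5, exact permutation p = 0.159, adjusted p = 0.328). Among the 19343 highest-scoring peaks it was 3.2, with 8 to 11 peaks in the thymus and 4 to 7 in bone marrow (exact permutation p = 0.00794 before adjustment).

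Of the 31 *Ets1* intervals, 13 were open only in thymic libraries, against 27% of all intervals, 9 only in bone marrow, against 33.6%, and 9 in both, against 39.4%. Those open in all 9 libraries were the start site at 0.6 kb (6.13% to 33.8%), an interval at 10.2 kb in intron 1 and one at -79.9 kb at the edge of the window. The interval at 10.2 kb ranked at 2.52%, 5.8% and 5.72% in the CLP libraries and at 32.3% to 48.4% in the 6 libraries of the other cell types. CLP replicate 1 fell with the other CLP libraries at this interval. Setting CLP against all other libraries was not a planned contrast, and the share of all intervals that part them in this way was not computed. Thymic libraries alone opened the intervals at 35.7 kb in intron 3 (17%, 17.7%, 25.9% and 37.7%), 27.2 kb and -75.3 kb. Both CD4SP libraries and no other opened 5 intervals, at 5.5, 21.6, 30.9, 32.4 and 47.8 kb, against 2.65% of all intervals, and 1 CD4SP library alone opened those at -18.2, 8.1 and 17.2 kb. Of the 18 intervals open in both CD4SP libraries 11 were open in both NKT libraries, against 81.7%.

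The interval at 45.1 kb in intron 6 (chr9:32740357-32741837) joined the thymic cells and ILCP. It ranked at 13.6% and 10% in CD4SP, 13.2% and 19.4% in NKT, and 7.24% and 9.15% in ILCP, and had no peak in any of the 3 CLP libraries. It was the only one of the 79 intervals specific to ILCP against CLP, a class that holds 6.34% of all intervals. The difference between ILCP and CLP was -91.8 percentage points of rank, against 4.5 between NKT and CD4SP, and the gap of 96.3 between these contrasts had an exact permutation p of 0.0333, not adjusted. CLP replicates 2 and 3 had in turn 8 intervals that no other library opened, 25.8% of the *Ets1* intervals against 10.2% of all intervals. They included the start site of the upstream *Ets1* transcripts at -59.9 kb (58.4% and 69.5%) and an interval at 24.4 kb in intron 1 (24.9% and 29.5%). No interval of the 79 was open in all 3 CLP libraries and neither ILCP library, a class of 5.97%, but 13 were when CLP replicate 1 was left out, against 22.2% of intervals. Without ILCP replicate 1 there were 2, against 7.4%, and without ILCP replicate 2 there was 1, against 7.24%. The sequences of the shared thymic and ILCP interval, of the interval that ranked highest in CLP and of the CLP-only intron 1 interval are given from the plus strand of mm10 (chr9:32740997-32741196, chr9:32706121-32706320 and chr9:32720370-32720569). In the first, the TCF/LEF and GATA letters overlap in a joined run of capitals, and in the second the letters of an E-box, a TCF/LEF and an ETS motif adjoin or overlap near the end, with a further E-box nearer the middle.
Ets1 intron 6, thymic and ILCP: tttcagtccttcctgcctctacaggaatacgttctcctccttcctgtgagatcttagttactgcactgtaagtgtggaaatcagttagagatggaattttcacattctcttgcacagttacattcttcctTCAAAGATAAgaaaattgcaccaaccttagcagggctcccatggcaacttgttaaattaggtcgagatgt
Ets1 intron 1, all 9 libraries: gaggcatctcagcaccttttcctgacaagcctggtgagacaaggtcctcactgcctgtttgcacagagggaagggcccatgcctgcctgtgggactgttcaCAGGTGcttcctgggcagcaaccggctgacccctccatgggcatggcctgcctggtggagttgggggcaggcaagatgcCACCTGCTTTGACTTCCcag
Ets1 intron 1, CLP replicates 2 and 3: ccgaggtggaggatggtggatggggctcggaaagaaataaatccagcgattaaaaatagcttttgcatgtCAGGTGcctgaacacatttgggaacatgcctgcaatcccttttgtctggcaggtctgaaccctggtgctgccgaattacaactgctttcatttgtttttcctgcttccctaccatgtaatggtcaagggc

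Over the 5 genes together, 43 of the 79 intervals were open only in thymic libraries, against 27% of all intervals. Open only in bone marrow were 13, against 33.6%, and in both tissues 23, against 39.4%. Open in all 9 libraries were 8 (10.1%), against 13.3% of all intervals. Open in all 4 thymic and no bone marrow library were 10 (12.7%), against 7.04%, 5 of them at *Bcl11b*, and in all 5 bone marrow and no thymic library 0, against 2.04%. No interval was open in NKT and ILCP only, against 0.605%. Specific to CD4SP against NKT were 15 (19%), against 3.46%, of which 7 lay at *Satb1* and 6 at *Ets1*, and 24 when CD4SP replicate 1 was left out, against 7.11% of intervals. Of the 34 intervals open in both NKT libraries 31 were open in both CD4SP libraries, against 80.7% over the genome, and of the 47 open in both CD4SP libraries 31 were open in both NKT libraries, against 81.7%. All 13 intervals open in both ILCP libraries were open in all 4 thymic libraries, against 58.9% over the genome, and 12 of the 13 were open in at least 1 CLP library, against 78.5%. Every interval of the 79 with a peak in an ILCP library also had one in some thymic library, but the share over all intervals was not computed. In windows drawn around gene bodies, 53 of the 79 lay in introns and 12 covered an annotated start site of their gene. No share over all intervals was computed for these places.

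**Figure D3:**
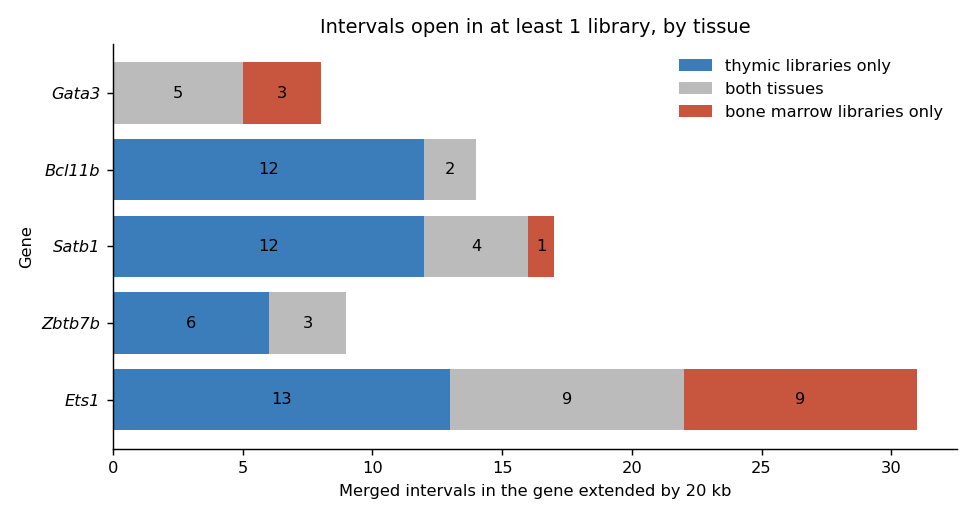
Number of merged intervals (horizontal axis) of each gene open in thymic libraries only, in both tissues or in bone marrow libraries only, where open means a peak in at least 1 library. *Bcl11b* has 12 intervals of the thymus alone and 0 of bone marrow alone, *Gata3* has 0 and 3, and *Ets1* has 13 and 9.

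The open stretches beyond the windows were described up to the next protein-coding gene. Downstream of *Bcl11b*, the 420766 bp to the gene model *3110018I06Rik* held 17 intervals, of which CD4SP opened 9 and 14, NKT 7 and 10, CLP 1, 1 and 1, and ILCP 2 and 1. The stretch continued past that model to *Vrk1* spans 1832976 bp and held 54 intervals. *Vrk1* was chosen as the end after the values were seen. CD4SP opened 33 and 47 of them, NKT 25 and 32, CLP 2, 4 and 5, and ILCP 5 and 6, and 46 were open in some thymic library and no bone marrow library, against 27% of all intervals. The stretch of 2347514 bp downstream of *Gata3* to *Celf2* had 37 intervals, of which CD4SP opened 26 and 23, NKT 21 and 16, CLP 3, 9 and 13, and ILCP 6 and 9. In this stretch, unlike the window of *Gata3* itself, every thymic library opened more intervals than any bone marrow library. How many stretches over the genome separate the tissues in this way was not computed. Upstream of *Satb1* towards *Kcnh8*, CD4SP opened 32 and 35 of 45 intervals, NKT 25 and 23, CLP 6, 12 and 11, and ILCP 12 and 15. Downstream of *Ets1* towards *Kirrel3*, by contrast, 9 to 10 of 25 intervals were open in thymic libraries and 6 to 13 in bone marrow libraries. On the other sides the tissues overlapped. Upstream of *Bcl11b* to *Setd3*, of 8 intervals 2, 3, 4 and 4 were open in the thymic libraries and 0, 4, 4, 3 and 2 in those of bone marrow. Downstream of *Satb1* to *Tbc1d5*, of 12 intervals 5, 3, 3 and 3 were open in the thymus and 2, 6, 4, 4 and 3 in bone marrow. Upstream of *Ets1* to *Fli1*, of 14 intervals 6 to 9 were open in thymic and 3 to 8 in bone marrow libraries, and upstream of *Gata3* to *Taf3* the 2 intervals were open only in CLP replicates 2 and 3. *Zbtb7b* has close neighbours on both sides, and its gaps held 0 and 1 interval.

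**Figure D4:**
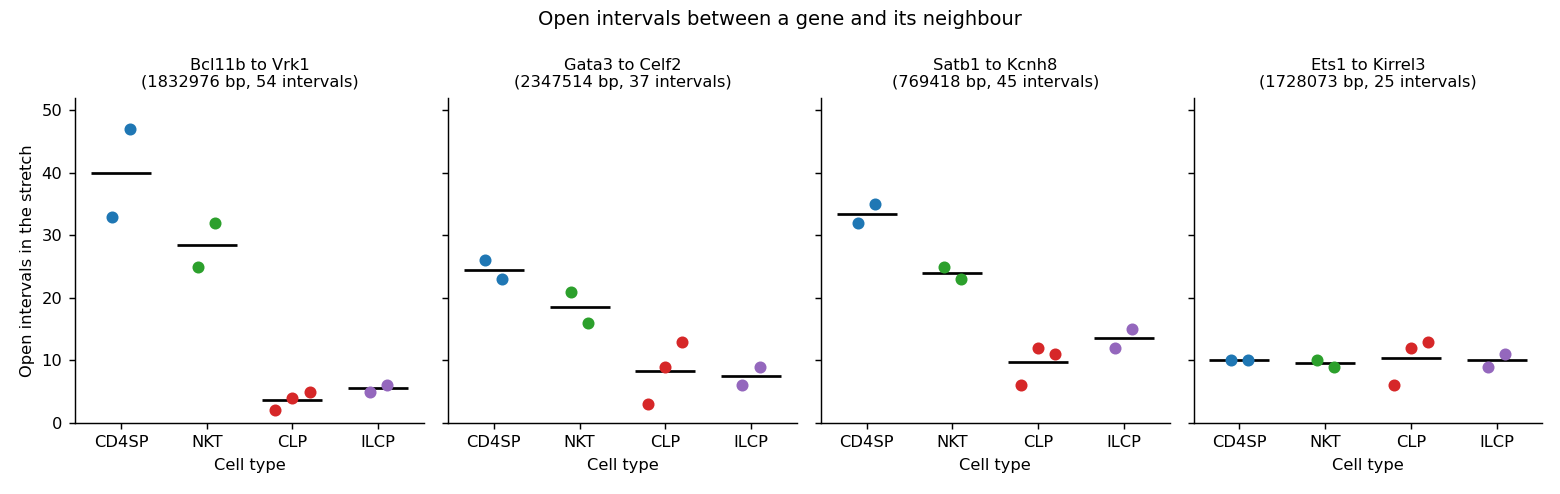
Open intervals (vertical axis) in each library (points, with the mean as a line) beside a gene, with 1 side shown for each gene drawn. Each stretch ends at the next protein-coding gene, except that of *Bcl11b*. It runs past *3110018I06Rik* to *Vrk1*, an end chosen after the values were seen. Thymic libraries lie above bone marrow libraries beside *Bcl11b*, *Gata3* and *Satb1*, and overlap them beside *Ets1*, whereas the tissues overlap on the sides that are not drawn.

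Other genes of the T cell programme were counted from a list of 20, and of the progenitor programme from a list of 13, to set the 5 genes beside them. In the T-lineage list 8 genes had more peaks in every thymic library than in any bone marrow library, against 12.8% of all genes, and 0 had fewer, with a median difference of 2.3 peaks against 0.45 over all genes. *Lef1* (difference 9.9) and *Tcf7* (5.55), the factors that bind the TCF/LEF motif, *Tox* (8.95), a nuclear factor of thymocyte development, and *Cd3e* (4.25), a chain of the T cell receptor complex, were among them. In NKT against CD4SP, 6 of the 20 had fewer peaks, against 6.16% of all genes, among them *Lef1* (-6), *Tox* (-4.5) and *Tcf7* (-3.5), and 1, *Runx1* (1), had more, against 8.83%, with a median of -0.5 against 0 over all genes. In ILCP against CLP, 5 of the 20 had fewer peaks, against 9.69%, and 1, *Themis*, had more, against 4.53%, with a median of -1.33 against -0.5. Without CLP replicate 1, 14 of the 20 had fewer, against 46.3%, with a median of -1.75 against -1. In the progenitor list 3 genes had fewer peaks in every thymic library, *Meis1* (-12.5), *Bcl11a* (-5.65) and *Cebpa* (-2.65), against 3.54% of all genes, and 0 had more, with a median of -0.15 against 0.45. That median was -0.75 against 0.25 when CLP replicate 1 was left out. In NKT against CD4SP, 3 of the 13 (*Hhex*, *Kit* and *Mef2c*) had more peaks, against 8.83%, and 0 had fewer, with a median of 0.5 against 0. In ILCP against CLP 0 had more and 0 fewer, with a median of -1.67 against -0.5, and without CLP replicate 1 fewer peaks were found for 9 of the 13, against 46.3%, with a median of -3 against -1. For these genes too no adjusted p passed 0.05, while 10 of the 20, all with more peaks in the thymus, and 3 of the 13, all with fewer, had an unadjusted exact permutation p under 0.05, against 23.6% and 7.09% of all genes in those directions and 30.7% in either.

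**Figure D5:**
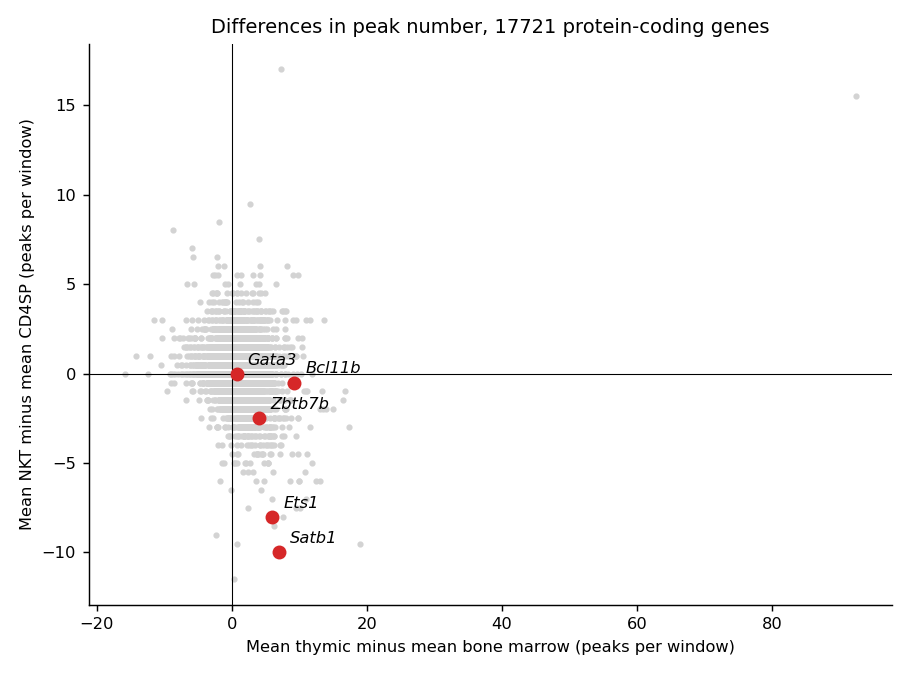
Difference in mean peak number between thymic and bone marrow libraries (horizontal axis) and between NKT and CD4SP (vertical axis) for 17721 protein-coding genes (grey), with the 5 genes in red. *Satb1* (7 and -10) and *Ets1* (6 and -8) lie at the lower edge, *Bcl11b* (9.25 and -0.5) to the right, and the grey point far to the right is *Gm20388*, a gene model that spans many genes.

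The genes whose peaks per 10,000 followed each of the 5 most closely over the 9 libraries were taken from 5659 genes with a mean of at least 3 peaks. For *Bcl11b* they were *Dusp10*, *Ccr8* and *Tomm34* (Pearson r of 0.99, 0.987 and 0.986), and for *Zbtb7b* they were *Tcf7*, *Tshz2* and *Armh1* (0.992, 0.972 and 0.968). For *Satb1* they were *Fanci*, *Klrb1c* and *Lenep* (0.955, 0.954 and 0.952), for *Ets1* *Zfp386*, *Commd3* and *Mgst2* (0.977, 0.947 and 0.929), and for *Gata3* *Ifnar2*, *Sft2d2* and *2410137M14Rik* (0.963, 0.929 and 0.927). *Tcf7* had 7 and 10 peaks in CD4SP, 4 and 6 in NKT, 0, 2 and 2 in CLP, and 1 and 1 in ILCP, close to the numbers of *Zbtb7b*. The points of these correlations share 4 cell types and the peak totals of 9 libraries, and the window of *Lenep* overlaps that of *Zbtb7b*.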

How the data were processed

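Accessibility was measured by ATAC-seq in 9 libraries of CD4SP, NKT, CLP and ILCP cells, which the study's methods call biological replicates. The authors aligned the reads to mm10 with Bowtie, and the submitters' processing notes also list Picard and HOMER. The study's text names MACS for peak calling, as do the peak names in the files, and HOMER for the ChIP-seq signal tracks. The authors deposited a peak list for each library without pooling replicates, with a score in the last column that was taken to be the score of MACS, and its lowest value is 120. The caller's settings and version are not given in the sources used here, nor is the read depth of each library, for which the methods give only a range over all libraries, so no counting interval was computed and scores were used only as ranks within a library. The ChIP-seq samples of the series (Runx1 and input, NKT) were not analysed here.

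Peaks were counted from 1, merged over libraries where they shared at least 1 bp, and assigned to genes of GENCODE M21 extended by 20 kb, with Python 3.11.15, numpy 2.4.6, pandas 2.3.3 and matplotlib 3.10.9. Mean peak numbers and mean percent ranks (closed intervals set to 100%) were compared by exact permutation of library labels, two-sided, where p is the share of arrangements with an absolute difference at least as large, with Benjamini-Hochberg adjustment over all 17721 genes or 71400 intervals. There were 126 arrangements for thymic against bone marrow, 6 for NKT against CD4SP, 10 for ILCP against CLP and 60 for the gap between these contrasts. Sequences and motif matches came from GRCm38.p6. The functions for merging, interval classes, window counts, permutation and adjustment were tested on simulated data. Other steps, among them the replicate block, the gap between contrasts, the peak cuts, the gene correlations and the motif search, were not tested in this way.

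Named intervals were those over an annotated start site of a gene and, in each class, up to 3 with the best median rank, and other intervals were named after their values were seen. The most alike genes were the 3 with the highest Pearson correlation of peaks per 10,000. The 5 genes, the lists and the tests were chosen with earlier results of these data known. Alternatives were an equal number of highest-scoring peaks (19343), the higher-scoring 50% of each library, windows without extension or with 50 kb, peaks per 10,000, base pairs covered, peak midpoints, peaks within 1 kb of another gene's start left out, peaks covering at least 50% of an interval, openness in any library of a group, whole intervals for motifs, a replicate block, and each library left out in turn. Lists of genes without CLP replicate 1 were added after seeing the data.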

Additional observations from a re-analysis of the deposited data

Results flagged for a closer look

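The *Ets1* interval at 45.1 kb was flagged because its difference between the innate-like cells and their counterparts was unlike in the 2 tissues. The rank difference was 4.5 percentage points for NKT minus CD4SP and -91.8 for ILCP minus CLP. The gap of 96.3 had an exact permutation p of 0.0333 when labels were exchanged within each tissue, a level at or under 0.05 that 2.93% of the 71400 intervals and 3 of the 79 (3.8%) reached, and it is not adjusted. The other two were *Ets1* intervals at -23.5 kb and 14.1 kb, with gaps of -62.6 and 66.5. All 3 CLP libraries lacked the peak, replicates 2 and 3 with 41535 and 40136 peaks included, and the 6 other libraries ranked it at 7.24% to 19.4%.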

How the results depend on the processing

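Counts of genes and of intervals kept within 1.5 times their value in 154 of 182 recomputations. The shares of all genes called apart and of all intervals specific to a group were computed only for the main setting and some left-out libraries. The counts under the other settings therefore have no share to be set against. Using an equal number of highest-scoring peaks, ILCP-specific intervals numbered 4 in place of 1, thymic-specific ones 5 in place of 10, CD4SP-specific ones 4 in place of 15 and NKT-specific ones 0 in place of 2, and 1 gene had more peaks in ILCP than in CLP. Thymic and bone marrow libraries then separated at 2 genes, *Bcl11b* and *Ets1*, and no longer at *Satb1* and *Zbtb7b*, and the ILCP minus CLP difference turned positive at *Satb1* (0.5), *Zbtb7b* (1.33) and *Ets1* (1.17). With the higher-scoring 50% these intervals numbered 2, 4, 4 and 0, 1 was CLP-specific, 1 gene had fewer peaks in NKT and 1 gene, in place of 3, had more peaks in the thymus. If openness in any library of a group sufficed, 43 intervals were thymic, 13 bone marrow, 27 CD4SP and 19 CLP intervals. Per 10,000 peaks, 1 gene separated ILCP from CLP in each direction, and 3 of the 5 genes and 2838 of all genes passed the adjusted threshold, where peak numbers gave 0. Leaving out each library gave 0 to 1 genes with more peaks in NKT (1 without CD4SP replicate 2). It gave 2 to 4 with fewer in NKT and 15 to 24 CD4SP-specific intervals (4 and 24 without CD4SP replicate 1), and 0 to 4 with fewer in ILCP and 0 to 13 CLP-specific intervals (4 and 13 without CLP replicate 1). Over whole intervals the motif shares were 64.6% for Runx, 43% GATA, 53.2% TCF/LEF, 63.3% ETS and 74.7% E-box, against 69.7%, 45.2%, 57.9%, 61.5% and 74.7% of all intervals, so against all intervals TCF/LEF and GATA went from the higher to the lower share and E-box from the lower to an all but equal one.

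The *Gata3* difference between tissues reversed per 10,000 peaks (-0.115), in base pairs covered (-261) and without peaks near other start sites (-0.5). Its start-site rank difference reversed with equal numbers of peaks (1.88 at 0.6 kb and 1.87 at -10.7 kb), where ranks are a percentage of that equal number. It spanned -1.75 to 1.76 over the left-out libraries, and that of *Ets1* at 0.6 kb spanned -1.58 to 5.73. The cause of these changes was not tested. The paired analysis with a replicate block gave the same differences for the thymic contrast (9.25 for *Bcl11b*, exact permutation p = 0.0278) and changed no call. Same-numbered CD4SP and NKT libraries deviated together (correlation 0.486) and CLP and ILCP did not (-0.0411 and -0.0288), and no label ties a number to a shared animal or day. The unknown depth of each library, and the 19343 peaks of CLP replicate 1, limit what a missing peak means.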
